A study of Mus musculus with 12 samples.

Results

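Of the 48526 genes in the deposited expression table, 10 make up the growth hormone and STAT5 axis described here. They were picked by name for their place in the pathway, at a time when earlier results of these data were known. The receptor is Ghr, the transcription factor that carries its signal is Stat5b, the feedback inhibitors are Socs2 and Cish, the secreted growth factor and its carrier are Igf1 and Igfals, the repressors linked to the pattern of hormone release are Bcl6 and Cux2, and the major urinary proteins Mup3 and Mup20 stand for male-type output. All 10 had a single row and passed the filter on low values, so they are among the 11968 genes tested.

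The samples were whole livers of C57BL/6J mice, an inbred laboratory strain, with no genetic change in any group. Female chow, female statin, male chow and male statin had 3 livers each, 12 in all, and each liver was a separate library. The statin groups ate chow with simvastatin, a drug that blocks HMG-CoA reductase in cholesterol synthesis, for 4 weeks, and the chow groups ate chow without it for the same time. The dose is given per kg of food in the study's methods and per kg of body weight in the labels, in both at 0.1 g, and the labels put 1 diet product code on all groups. The labels give no age. By the methods the mice were young adults when the diets began and were kept on a light and dark cycle, and the hour at which the livers were taken is not given in the sources used here. Poly(A) RNA was sequenced, with 46066381 to 60419223 reads counted per liver, and levels are CPM, a gene's count scaled to a common library total, after TMM scaling, which corrects each library by a trimmed mean of its log ratios to the others.

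Growth hormone is released by the pituitary in pulses that are regular in male mice and closer to continuous in females. In hepatocytes it binds its receptor, whose partner kinase JAK2 phosphorylates STAT5, and STAT5 then enters the nucleus and switches on Igf1 and the inhibitors that end each round of signalling. The release pattern sets much of the sex bias of liver genes: BCL6 is a repressor that holds down female-biased genes in males, and CUX2 is a repressor that holds down male-biased genes in females.

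STAT5 dimers bind the inverted repeat TTCNNNGAA, so the promoter windows of the members were searched for these letters. The matches found are shown, whatever the level of the gene. Promoters were taken from RefSeq (GRCm38.p6) as the 250 bases before and the 50 bases after each annotated start. The table held 8 of the 10 members, all but Socs2 and Mup20. The repeat is its own reverse complement, so both strands were covered, and overlapping matches were counted. It was found in the windows of 3 of the 8, and in 2582 of all 27025 genes in the table (9.55%). The windows of Ghr, Stat5b, Igf1, Cux2 and Mup3 did not hold it. Each sequence reads 5′ to 3′ on the gene's strand, with the match in capitals.
Cish, chr9:107296659-107296667, plus strand: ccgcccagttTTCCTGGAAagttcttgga
Cish, chr9:107296670-107296678, plus strand: tcctggaaagTTCTTGGAAatctgtcaaa
Igfals, first start, chr17:24877608-24877616, plus strand: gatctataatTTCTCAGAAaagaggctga
Igfals, second start, chr17:24878173-24878181, plus strand: ctgccaggtgTTCCTAGAAgaggccctgg
Bcl6, upstream start, chr16:23988962-23988970, minus strand: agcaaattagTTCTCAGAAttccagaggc
Bcl6, downstream start, chr16:23981443-23981451, minus strand: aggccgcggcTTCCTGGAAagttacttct
Bcl6, downstream start, chr16:23981397-23981405, minus strand: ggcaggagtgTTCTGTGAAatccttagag
Bcl6, downstream start, chr16:23981363-23981371, minus strand: atcgactacgTTCCGGGAAtgagagggct
The Cish matches lie so close together that each window holds most of the other match. A match of letters is a description of the window and not evidence of binding.

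Among the members the smallest p-values for simvastatin in females belonged to the growth factor and its carrier. Igf1 averaged 329 ± 29.3 CPM with chow and 488 ± 72.0 CPM with statin, and Igfals 61.9 ± 17.0 and 127 ± 34.4 CPM (SD, n = 3 livers each, as throughout). For both genes every female statin liver was above every female chow liver, yet neither passed the test after adjustment over all genes. In the male livers the statin and chow values of both genes overlapped. Between the sexes on chow 6 of the 10 members differed, beside 10.4% of all genes tested, with Cux2 higher in females and Ghr, Igf1, Igfals, Mup3 and Mup20 higher in males.

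**Figure D1:**
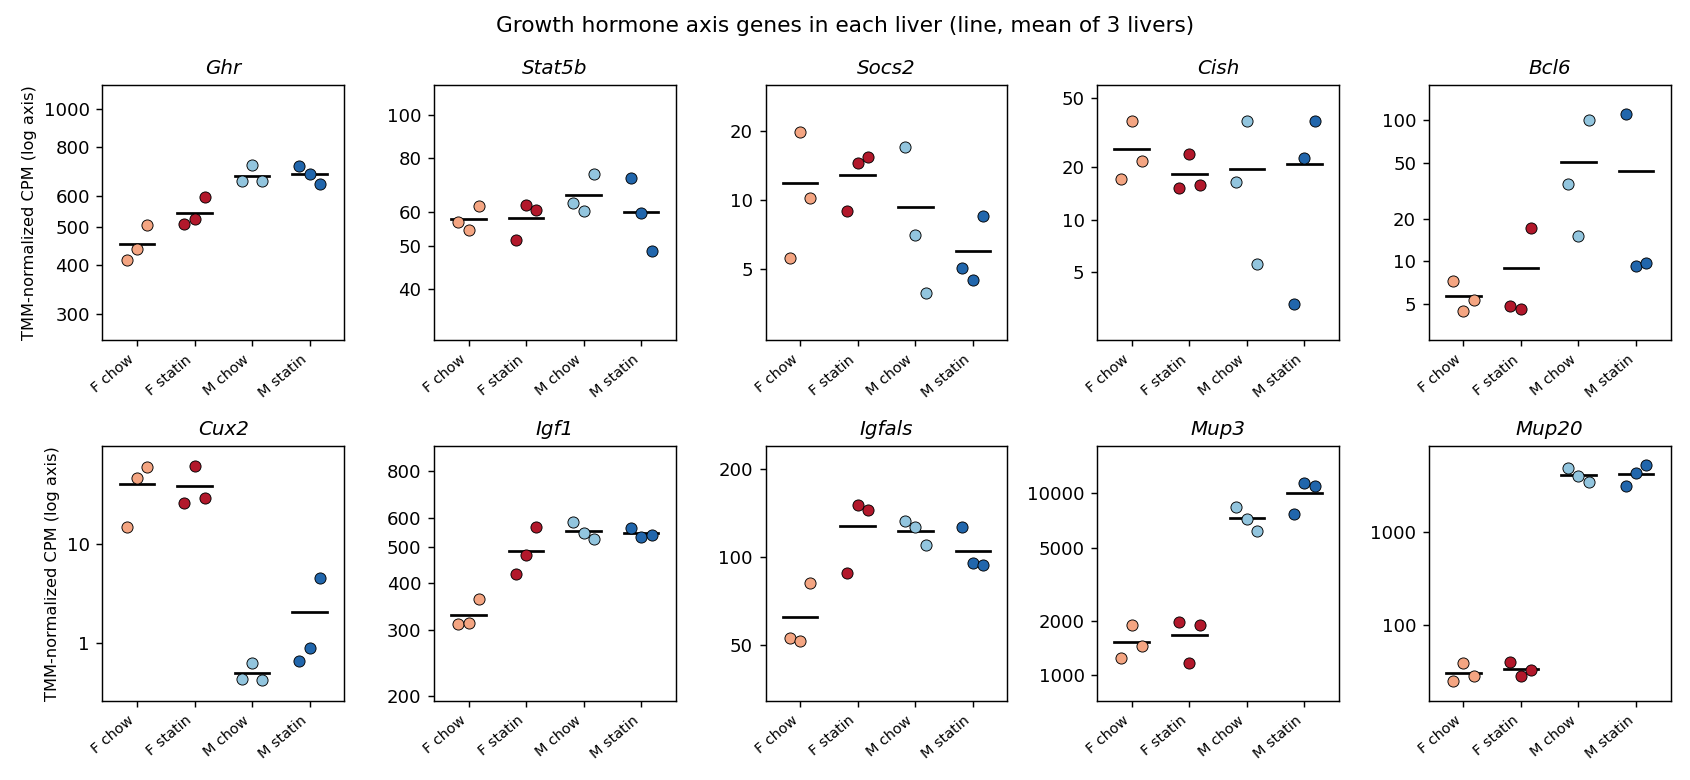
TMM-normalized CPM of the 10 members in each of the 12 livers, on a log axis that is scaled separately for each gene, with the 4 groups side by side (F, female; M, male), 1 point per liver in replicate order and a line at the mean of 3 livers. Mup3 and Mup20 lie higher in all 6 male livers and Cux2 in all 6 female livers, whereas Socs2, Cish and Stat5b overlap between the sexes on chow.

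Ghr encodes the growth hormone receptor (chromosome 15 of GRCm38, 3317760 to 3583492, minus strand). Its level was 412, 438 and 505 CPM in the female chow livers, 508, 523 and 596 CPM in the female statin livers, 652, 718 and 652 CPM in the male chow livers and 716, 682 and 641 CPM in the male statin livers. No female liver reached the lowest male liver, and the female statin livers began just above the highest female chow liver. On chow Ghr was lower in females by a log2 difference of -0.58 (SE 0.13, adjusted p = 0.0142, edgeR's quasi-likelihood test), which was lost without female chow replicate 1 or male chow replicate 2 (adjusted p up to 0.0599). On statin the female minus male log2 difference was -0.33 (SE 0.13, adjusted p = 0.175, edgeR), and it passed with DESeq2 (adjusted p = 0.0271). Within females statin minus chow was 0.26 (95% interval -0.02 to 0.54), and within males 0.01 (95% interval -0.27 to 0.29).

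Stat5b (chromosome 11, 100780731 to 100850724, minus strand) encodes the STAT protein that growth hormone activates in hepatocytes. It was at 56.8, 54.6 and 62.0 CPM with chow and 51.6, 62.3 and 60.5 CPM with statin in females. In males it was at 63.0, 60.4 and 73.4 CPM with chow and 71.8, 59.7 and 48.8 CPM with statin. The 4 groups overlapped throughout. The log2 difference for statin was 0.01 in females (95% interval -0.31 to 0.33) and -0.13 in males (95% interval -0.45 to 0.19), and that of female minus male on chow was -0.18 (95% interval -0.50 to 0.14). Of the 50-base stretches in its transcripts 11% also occur in Stat5a, its close copy, so a share of its reads could have been counted on either gene.

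The feedback inhibitors varied widely between livers of a group. Socs2 (chromosome 10, 95385362 to 95417180, minus strand) encodes a suppressor of cytokine signalling that limits growth hormone receptor signalling. It was at 5.58, 19.8 and 10.2 CPM with chow and 8.92, 14.4 and 15.3 CPM with statin in females, and at 17.0, 7.02 and 3.91 CPM with chow and 5.05, 4.45 and 8.45 CPM with statin in males. The statin livers of the sexes did not overlap, with all 3 females above all 3 males, but the log2 difference of 1.10 (SE 0.53) had an adjusted p of 0.282 in edgeR. On chow the sexes overlapped, with a log2 difference of 0.35 (95% interval -0.78 to 1.48).

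Cish (chromosome 9, 107296026 to 107302784, plus strand) encodes an inhibitor that STAT5 itself induces, and its level is a common short-term readout of STAT5 activity. In females it was at 17.2, 37.2 and 21.9 CPM with chow and 15.2, 24.0 and 15.8 CPM with statin. The male livers were at 16.5, 36.9 and 5.60 CPM with chow and 3.28, 22.7 and 36.9 CPM with statin. The lowest values in the series were those of male statin replicate 1 and male chow replicate 3, and the other male livers lay within the female range. The log2 difference for statin was -0.47 in females (95% interval -2.03 to 1.08) and 0.09 in males (95% interval -1.46 to 1.64). The genes Gm17040 and Gm17041 overlap Cish on the other strand, and the strand setting of the counting is not given in the sources used here.

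Igf1 (chromosome 10, 87858265 to 87937042, plus strand) encodes insulin-like growth factor 1, the main hormone the liver secretes under growth hormone. It was at 311, 314 and 363 CPM in the female chow livers and 423, 476 and 565 CPM in the female statin livers. Among males the level was 584, 545 and 525 CPM with chow and 563, 533 and 540 CPM with statin. Female chow livers were thus the lowest group, the male groups lay close together, and the female statin livers lay in between with their highest inside the male range. Statin minus chow in females was 0.57 on the log2 scale (SE 0.13, 95% interval 0.27 to 0.86, unadjusted p = 0.00118 and adjusted p = 0.129, edgeR), and the adjusted p lay between 0.00165 and 0.553 over the other tools and settings, passing with DESeq2. In males it was -0.02 (95% interval -0.31 to 0.28). The difference between the responses was 0.58 (SE 0.19, 95% interval 0.17 to 1.00, adjusted p = 0.405, edgeR). Igf1os overlaps the gene on the other strand.

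Igfals (chromosome 17, 24865997 to 24882010, plus strand) encodes the acid-labile subunit, which holds IGF1 and its binding protein together in the circulation. It was at 52.8, 51.4 and 81.5 CPM in chow-fed females and 87.7, 150 and 144 CPM in statin-fed females. In males it was at 132, 126 and 110 CPM with chow and 126, 95.1 and 93.5 CPM with statin. Female chow was again the lowest group, and the female statin livers reached and passed the male range. Statin minus chow in females was 1.04 on the log2 scale (SE 0.23, 95% interval 0.54 to 1.54, unadjusted p = 0.000708 and adjusted p = 0.110, edgeR), with adjusted p between 0.00264 and 0.451 over the other tools and settings. It passed with DESeq2 (adjusted p = 0.00264), without the filter on low counts (adjusted p = 0.00681) and without female statin replicate 1 (adjusted p = 0.0341). In males it was -0.23 (95% interval -0.72 to 0.27), and the difference between the responses was 1.27 (SE 0.32, 95% interval 0.56 to 1.97, adjusted p = 0.305, edgeR).

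Counted over the members, 0 of 10 passed an adjusted p of 0.05 for statin in females, where 0.1% of all 11968 genes passed. At an unadjusted p under 0.05 there were 2 members, Igf1 and Igfals, beside 10.5% of all genes, and DESeq2 called the same pair after adjustment, beside 270 of all 11968 genes. The statin and chow livers of females did not overlap for 3 members, Ghr, Igf1 and Igfals, each higher on statin, and they did not overlap for 12% of all genes (6.03% with the statin livers higher). The median log2 difference of the members was 0.13, beside 0.01 over all genes. In males 0 of 10 members passed, as did 0% of all genes, with 1 member at an unadjusted p under 0.05 (Cux2) beside 1.96% of all genes, 0 by DESeq2, and 1 without overlap (Cux2, higher on statin) beside 7.95% of all genes (3.64% higher). For the difference between the responses of the sexes 0 of 10 passed in edgeR (0% of all genes), 2 had an unadjusted p under 0.05 (Igf1 and Igfals) beside 8.01% of all genes, and DESeq2 called 1, Igfals, with an adjusted p of 0.0340, beside 122 of all genes.

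**Figure D2:**
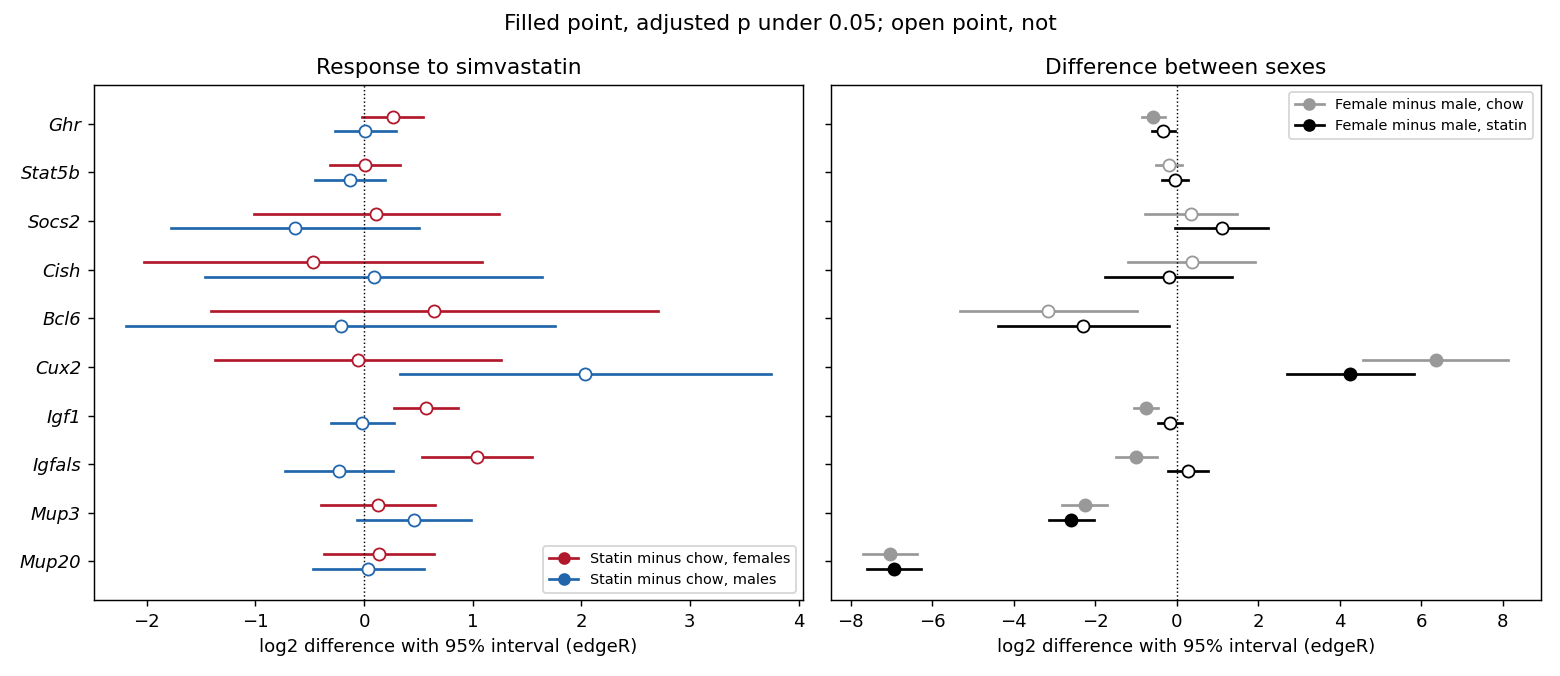
Log2 differences of the 10 members with 95% intervals from edgeR, statin minus chow in each sex on the left and female minus male on each diet on the right, filled where the adjusted p was under 0.05. All 20 points on the left are open, with the female intervals of Igf1 (0.27 to 0.86) and Igfals (0.54 to 1.54) and the male interval of Cux2 (0.33 to 3.75) clear of 0, and the right side has 6 filled points on chow and 3 on statin.

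On chow Igf1 was lower in females than in males by a log2 difference of -0.74 (SE 0.14, adjusted p = 0.00462, edgeR). Igfals was lower by -0.99 (SE 0.23, adjusted p = 0.0180, edgeR), a call lost without female chow replicate 1 or 2 or male chow replicate 1 or 2 (adjusted p up to 0.0792). On statin the corresponding differences were -0.16 for Igf1 (95% interval -0.45 to 0.13) and 0.28 for Igfals (95% interval -0.22 to 0.77), neither past the test. Whether the sex difference changed with diet is the same quantity as the difference between the responses given above, which did not pass in edgeR for either gene, while that of Igfals passed with DESeq2 (adjusted p = 0.0340) and without the filter (0.0358).

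The repressors Bcl6 and Cux2 lay on opposite sides of the sex comparison. Bcl6 (chromosome 16, 23965052 to 23988852, minus strand) was at 7.26, 4.44 and 5.28 CPM in chow-fed females and 4.83, 4.61 and 17.3 CPM in statin-fed females. The male livers were at 35.4, 15.1 and 101 CPM with chow and 111, 9.31 and 9.71 CPM with statin. On chow the sexes did not overlap, but the male livers spread widely. The female minus male log2 difference on chow was -3.15 (SE 1.00, adjusted p = 0.0658, edgeR), and it passed with DESeq2 (adjusted p = 0.0191), without the filter (adjusted p = 0.00082) and without male statin replicate 1 (adjusted p = 0.0115). On statin it was -2.29 (SE 0.96, adjusted p = 0.205, edgeR) with overlapping livers, and it passed without the filter (adjusted p = 0.0174). Without male statin replicate 1 it was -0.10. Gm37419 overlaps Bcl6 on the other strand.

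Cux2 (chromosome 5, 121856366 to 122050102, minus strand) was at 14.7, 46.4 and 60.4 CPM in chow-fed females and 25.8, 61.6 and 29.4 CPM in statin-fed females. In chow-fed males it was at 0.429, 0.621 and 0.413 CPM, which rests on 22 reads or more per liver, and in statin-fed males at 0.656, 0.890 and 4.52 CPM. The lowest female liver was thus above the highest male liver on both diets. Cux2 exceeded 1 CPM in every female liver and, among males, in male statin replicate 3 alone. It thus met the filter, over 1 CPM in 6 or more livers, through the female livers. The female minus male log2 difference was 6.36 on chow (SE 0.82, adjusted p = 0.000456, edgeR) and 4.26 on statin (SE 0.71, adjusted p = 0.00364, edgeR). In males all statin livers were above all chow livers, with a log2 difference of 2.04 (SE 0.78, 95% interval 0.33 to 3.75, unadjusted p = 0.0232 and adjusted p = 1.00, edgeR). Without male statin replicate 3, whose level was 4.52 CPM, it was 0.65. The difference between the responses of females and males was -2.09 (95% interval -4.25 to 0.07), and it was -0.71 without male statin replicate 3 and -0.75 with limma and a pseudocount of 1. Gm3970 and Gm15637 overlap Cux2 on the other strand.

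Mup20 (chromosome 4, 62050234 to 62054158, minus strand) encodes darcin, a major urinary protein that acts as a male scent signal. It was at 25.1, 39.4 and 28.6 CPM in chow-fed females and 40.4, 28.7 and 33.5 CPM in statin-fed females. Among males the level was 4814, 3910 and 3419 CPM with chow and 3046, 4276 and 5171 CPM with statin. The sexes were far apart on both diets and the diets overlapped within each sex. Female minus male was -7.03 on the log2 scale on chow (SE 0.30, adjusted p = 2.03e-08, edgeR) and -6.93 on statin (SE 0.30, adjusted p = 2.09e-08, edgeR). Statin minus chow was 0.14 in females (95% interval -0.37 to 0.65) and 0.04 in males (95% interval -0.47 to 0.55).

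Mup3 (chromosome 4, 62083476 to 62087342, minus strand), another member of the urinary protein cluster, was high in both sexes. It was at 1240, 1884 and 1450 CPM in chow-fed females and 1958, 1164 and 1882 CPM in statin-fed females, and at 8457, 7209 and 6213 CPM in chow-fed males and 7692, 11422 and 10922 CPM in statin-fed males. The male livers were all above the female livers. Female minus male was -2.26 on the log2 scale on chow (SE 0.25, adjusted p = 0.00015, edgeR) and -2.59 on statin (SE 0.26, adjusted p = 5.07e-05, edgeR). Statin minus chow in males was 0.46 (95% interval -0.07 to 0.98), with male statin replicate 1 inside the chow range.

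Several Mup genes are close copies of each other, to a degree that differs between genes, so reads can be shared or lost between them. Of the 50-base stretches of Mup20 transcripts 50.5% occur in other genes, most often in Mup-ps19, and of those of Mup3 13.3%. Summed over the 21 of 22 listed Mup rows with reads, the family was at 1769 ± 355 CPM in chow-fed females, 2081 ± 573 CPM in statin-fed females, 14721 ± 2992 CPM in chow-fed males and 18112 ± 3659 CPM in statin-fed males. The family took 0.144% to 0.254% of the counts of a female liver and 1.17% to 2.05% of those of a male liver. Its makeup differed between the sexes: Mup20 was 1.48% to 2.00% of the sum in females and 20.9% to 29.3% in males, and Mup3 was 77.2% to 87.7% in females and 47.9% to 55.7% in males. Among the 16 Mup rows tested, 15 were lower in females on each diet (beside 4.49% of all genes on chow and 1.9% on statin), and 0 passed for statin in either sex or in the difference between the responses (7 in females, 2 in males and 4 in the difference at an unadjusted p under 0.05 in edgeR, beside 10.5%, 1.96% and 8.01% of all genes).

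Over the 10 members, 6 passed for female minus male on chow, beside 10.4% of all genes, with 1 higher in females (5.96% of all genes) and 5 lower (4.49%). On statin 3 passed, beside 6.28% of all genes, with 1 higher (Cux2, 4.38% of all genes) and 2 lower (Mup3 and Mup20, 1.9%). The sexes did not overlap for 7 members on chow (37.7% of all genes) and for 5 on statin (19.6% of all genes). The difference for Bcl6 was among the former and those for Ghr and Socs2 among the latter without passing the test in edgeR. The chow livers enter both the statin comparison of their sex and the sex comparison on chow, so these are not independent. The sex comparisons on chow and on statin share no livers. Yet all groups were in 1 fit with a shared estimate of the spread, so these comparisons are not fully independent either.

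**Figure D3:**
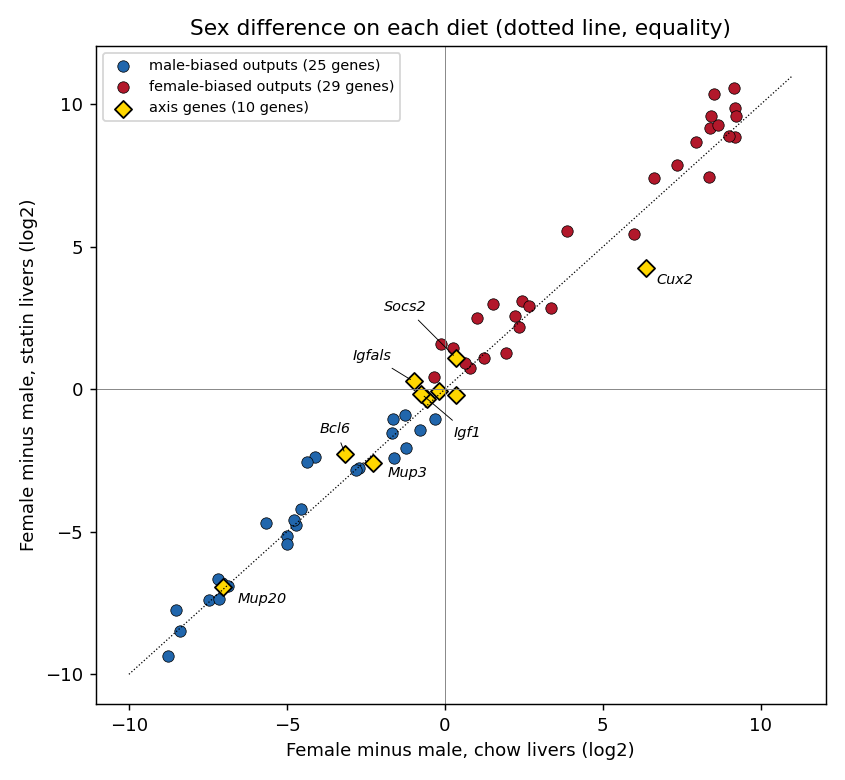
Female minus male log2 difference on chow (horizontal) against that on statin (vertical) for the 10 members (diamonds), 25 male-biased and 29 female-biased output genes (circles), with equality as a dotted line. Cux2 is at 6.36 and 4.26, Mup20 at -7.03 and -6.93, and Igf1 and Igfals lie left of 0 on chow and near 0 on statin.

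Per kilobase of exon the order of the members differed between the sexes. In male chow livers Mup3 stood at 6829 and Mup20 at 4362 CPM per kb, then came Ghr (74.4), Igf1 (55.7), Igfals (38.8), Stat5b (11.8), Bcl6 (7.51), Cish (3.06), Socs2 (0.977) and Cux2 (0.0484 CPM per kb). From Stat5b to Bcl6, Bcl6 to Cish and Cish to Socs2 the livers of neighbours overlapped. In female chow livers the order was Mup3 (1428), Ghr (49.9), Mup20 (33.5), Igf1 (33.3), Igfals (19.6), Stat5b (10.4), Cux2 (4.02), Cish (3.96), Socs2 (1.25) and Bcl6 (0.845 CPM per kb). There Mup20 and Igf1, Cux2 and Cish, and Socs2 and Bcl6 overlapped.

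Beyond the members, a list of 29 genes of the signalling chain (receptors, JAK and STAT proteins, SOCS inhibitors, adaptors, IGF binding proteins) had 25 tested. For statin 0 of them passed in females (4 at an unadjusted p under 0.05, beside 10.5% of all genes, and 3 by DESeq2, which called 270 of all genes), 0 in males (0 unadjusted, beside 1.96%) and 0 in the difference between the responses (3 unadjusted, beside 8.01%, and 1 by DESeq2, which called 122 of all genes). These shares and counts of all genes hold for the unadjusted and DESeq2 counts of the further lists too. Stat5a, the close relative of Stat5b, was at 10.4 ± 0.689 CPM in chow-fed females and 16.6 ± 0.144 CPM in statin-fed females, a log2 difference of 0.67 (SE 0.15, adjusted p = 0.110, edgeR), and at 12.9 ± 0.909 and 11.3 ± 2.43 CPM in males. Prlr, the prolactin receptor, which also signals through STAT5, ranged from 145 to 211 CPM in chow-fed females and from 193 to 499 CPM in statin-fed females, a log2 difference of 0.95 (SE 0.28, adjusted p = 0.219, edgeR), with overlapping livers. Socs3, a suppressor induced mainly by interleukin-6 signalling, was at 26.1 ± 16.7 CPM in chow-fed females and 7.98 ± 1.16 CPM in statin-fed females, a log2 difference of -1.71 (SE 0.46, adjusted p = 0.186, edgeR). Jak2, the receptor's kinase, had a log2 difference of -0.27 in females (adjusted p = 0.650, edgeR). It was -0.46 without female statin replicate 2 and -0.16 without female statin replicate 3. In males the smallest p-values of the list belonged to Socs6 (0.22), Sos1 (0.19), Stat5a (-0.20) and Igfbp2 (-0.31), each log2 difference with an adjusted p of 1.00 in edgeR. In the difference between the responses they belonged to Stat5a (0.87), Prlr (1.08), Socs3 (-1.68) and Socs6 (-0.42), with adjusted p from 0.277 to 0.665 in edgeR, and DESeq2 called Stat5a (adjusted p = 0.0231). For statin in females DESeq2 called Stat5a (adjusted p = 0.00318), Socs3 (0.0085) and Prlr (0.0406), and without the filter Socs3 (0.00353) and Prlr (0.0378) passed. Prlr also passed without female statin replicate 1 (adjusted p = 0.0417), and without female statin replicate 3 its log2 difference was 0.54 (adjusted p up to 0.648 over the livers left out).

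Between the sexes on chow 3 of the 25 signalling genes were higher in females (beside 5.96% of all genes) and 0 were lower (beside 4.49%). Igfbp3, the main carrier of IGF1 in blood and the partner of Igfals, was at 22.9 ± 1.02 CPM in chow-fed females and 9.96 ± 1.11 CPM in chow-fed males, a log2 difference of 1.20 (SE 0.20, adjusted p = 0.00288, edgeR). Socs3 was higher by 1.80 (SE 0.46, adjusted p = 0.0266, edgeR) and Grb10, an adaptor that restrains insulin and IGF receptors, by 0.91 (SE 0.24, adjusted p = 0.0320, edgeR). The Socs3 livers overlapped between the sexes. Its call was lost without female chow replicate 1 or 2 or male chow replicate 1 or 3 (adjusted p up to 0.125), and that of Grb10 without female chow replicate 2 or 3 or male chow replicate 1 or 3 (adjusted p up to 0.107). Igfbp3 was thus higher in females while Igf1 and Igfals were higher in males. On statin 4 of the 25 were higher in females, Prlr (2.00), Igfbp3 (1.21), Ptpn6 (0.56) and Stat5a (0.56 on the log2 scale), beside 4.38% of all genes, and 0 were lower, beside 1.9%. The lower genes with the smallest p-values on chow, Socs7 (-0.54), Igfbp4 (-0.48) and Sh2b1 (-0.24), did not pass in edgeR, and Socs7 (adjusted p = 0.0511) passed with DESeq2 (0.0206), with library size alone (0.0367), with limma (0.0491 and 0.0497) and without any 1 of the 3 female statin livers or male statin replicate 1 (down to 0.00933).

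Of 30 genes known for male bias 25 were tested, and 24 were lower in females on chow and 23 on statin (beside 4.49% and 1.9% of all genes), with median log2 differences of -4.73 and -4.57. Egfr was the exception on chow, and Egfr and C8a were the exceptions on statin. The list was chosen for this bias, so the counts describe it and are not independent evidence. Hsd3b5, a hydroxysteroid dehydrogenase, was at 1.08 ± 0.176 CPM in chow-fed females and 155 ± 27.3 CPM in chow-fed males, Mup21 had a log2 difference of -4.73 and Cyp4a12b, a fatty acid hydroxylase, of -8.76. For statin 0 of the 25 passed in females (5 unadjusted, 1 by DESeq2 beside 270 of all genes), 0 in males (1 unadjusted) and 0 in the difference between the responses (4 unadjusted). Mup17 had the smallest p-value in females, at 20.1 ± 7.51 CPM with chow and 60.4 ± 35.1 CPM with statin (log2 difference 1.59, adjusted p = 0.211, edgeR), and C9, a terminal complement component, had -0.45 (adjusted p = 0.312, edgeR). Mup17 passed with DESeq2 (adjusted p = 0.0125) and without the filter (0.00579), and its difference was 1.01 without female statin replicate 1. Mup21 had 0.40 and Gstp1 -0.37 (adjusted p = 0.390 and 0.585, edgeR). In males Mup21 (0.44), Gstp1 (0.43), Selenbp2 (-0.78) and C8a (-0.41) had adjusted p of 1.00. Selenbp2 was at -0.27 without male chow replicate 2, and C8a was at -0.83 without male statin replicate 1 and -0.19 without male statin replicate 3. In the difference between the responses Selenbp2 (1.81), Mup17 (1.75), C9 (-0.65) and Gstp1 (-0.81) had adjusted p from 0.405 to 0.459 (edgeR), and Selenbp2 passed without the filter (0.0366).

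Of 30 genes known for female bias 29 were tested, and 25 were higher in females on chow and 26 on statin (beside 5.96% and 4.38% of all genes), with median log2 differences of 3.86 and 5.44. This list too was chosen for its bias. Cyp3a41a and Cyp2a4, cytochromes of steroid and drug metabolism, had log2 differences of 9.23 and 9.01 on chow. Cyp3a41b, a near-identical copy of Cyp3a41a that could share its reads, was at 11.5 ± 1.77 CPM in chow-fed females and at 0 to 0.0373 CPM in chow-fed males, below the level of 3 counts, so no fold is given. Lpl (-0.35) and Cyp4a14 (-0.11) were the list genes below 0 on chow, and neither passed. For statin 1 of the 29 rose in females, beside 0.0836% of all genes (10 at an unadjusted p under 0.05, beside 10.5%, and 4 by DESeq2, beside 270 of all genes). This was Cyp3a16, at 56.6 ± 22.8 CPM with chow and 196 ± 60.3 CPM with statin (log2 difference 1.79, SE 0.28, adjusted p = 0.0382, edgeR), a cytochrome whose close copies could share reads. The call held without female chow replicate 3 or female statin replicate 1 or 2 and was lost without any 1 of the other 9 livers (adjusted p up to 0.244), with library size alone (adjusted p = 0.0643) and with each sex fitted alone (adjusted p = 0.324). Acot3, a peroxisomal thioesterase, had 1.62 (adjusted p = 0.0938) and Tox, a nuclear protein, -0.47 (adjusted p = 0.261, edgeR), and Ntrk2 had -1.10 (adjusted p = 0.634, edgeR). The Ntrk2 levels of statin-fed females were 6.88, 10.6 and 43.3 CPM, lowest first, and its difference was -2.32 without female statin replicate 2 and -0.67 without female statin replicate 3. Acot3 passed with DESeq2 (adjusted p = 7.03e-05), without the filter (0.000219) and without female chow replicate 3 or female statin replicate 1 (adjusted p down to 0.0387). The median of the list for statin in females was 0.38, beside 0.01 over all genes, with 24 of 29 above 0 beside 52.8% of all genes. In the same comparison the male-biased list had 16 of 25 above 0 and a median of 0.21, and the Mup family 16 of 16 and a median of 0.50. In males 0 passed (0 unadjusted), with a median of -0.00, and 0 passed in the difference between the responses (7 unadjusted, 1 by DESeq2, Abcd2, with 1.20 and an adjusted p of 0.265 in edgeR, 0.0150 in DESeq2 and 0.0219 without the filter). The named genes were Hao2 (1.18), Trim24 (0.25), Lpl (-0.45) and Cyp2a22 (-0.76) in males, and beside Abcd2 they were Acot3 (1.45, passing without the filter at an adjusted p of 0.0358), Tox (-0.68) and Hao2 (-0.91) in the difference between the responses. Hao2 was at 0.0796 to 0.113 CPM in chow-fed males, little above the level of 3 counts, and with limma and a pseudocount of 1 its male log2 difference was 0.15.

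Of 20 transcriptional regulators linked to liver sex bias all were tested, and 0 passed for statin in females (1 unadjusted, Nr1i3, which DESeq2 called), in males (0 unadjusted) or in the difference between the responses (1 unadjusted, Nr1i3). Nr1i3 encodes CAR, a nuclear receptor that controls drug metabolism, and was at 128 ± 24.2 CPM in chow-fed females and 296 ± 147 CPM in statin-fed females (log2 difference 1.21, SE 0.32, adjusted p = 0.177, edgeR), and it passed with DESeq2 (adjusted p = 0.0114), without the filter (0.00811) and without female statin replicate 2 (0.0221). In males its log2 difference was -0.33, and the difference between the responses was 1.54 (adjusted p = 0.347, edgeR, and 0.0294 without the filter). Esr1 (0.57), Hnf4a (-0.34) and Ezh1 (-0.14) in females, Esr1 (0.27), Foxo1 (0.21) and Nr3c1 (-0.25) in males, and Nr3c1 (0.52), Hnf4a (-0.41) and Ezh2 (-0.28) in the difference between the responses did not pass either. Among those that passed on chow, the histone demethylase gene Kdm6a, which is X-linked, was higher in females (log2 difference 0.59, adjusted p = 0.00874, edgeR). The pioneer factor gene Foxa1 was lower (-0.54, adjusted p = 0.0386, edgeR), a call lost without any 1 of the 6 chow livers or without male statin replicate 3 (adjusted p up to 0.146). Esr1 (1.21), Nr1i3 (-0.95) and Foxa3 (-0.56) did not pass in edgeR (adjusted p = 0.0517, 0.0777 and 0.186). Esr1 passed with DESeq2 (adjusted p = 0.00748), without the filter (0.00247), with limma (0.0475 and 0.0473) and without female statin replicate 1 or any 1 of the 3 male statin livers (adjusted p down to 0.0159). Nr1i3 passed with DESeq2 (adjusted p = 0.0208), without the filter (0.00855) and without female statin replicate 2 or 3 (down to 0.0133). Among those that passed on statin, the estrogen receptor gene Esr1 (1.51) and Kdm6a (0.49) were higher and Foxa1 was lower (-0.66). The number of regulators called on statin was 2 to 4 on leaving out single livers.

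Hepatocyte markers (Alb, Ttr, Apoa1, Cps1, Serpina1a, Hnf4a) were present in every liver, none at 0. Their summed level was 97186 to 131632 CPM in chow-fed females, 113891 to 153571 in statin-fed females, 72587 to 123789 in chow-fed males and 77418 to 90403 in statin-fed males. The diets overlapped within each sex and the sexes did not overlap on statin, and 1 of 6 was lower in females on chow, beside 4.49% of all genes. Most of the sum was Alb, which averaged 117830 of 137006 CPM in statin-fed females and 65584 of 83276 CPM in statin-fed males. Female minus male on statin was above 0 for 3 of the 6 markers and below 0 for 3, with a median log2 difference of 0.04. On that diet 0 of 6 passed, beside 6.28% of all genes. In the sex comparisons markers of other liver cells moved as well. Kupffer cell markers, summed, ranged from 531 to 632 CPM in chow-fed females, 457 to 735 in statin-fed females, 274 to 432 in chow-fed males and 266 to 334 in statin-fed males, with 2 of 7 higher in females on chow and 4 of 7 on statin, beside 5.96% and 4.38% of all genes, which hold for the next lists too. Endothelial markers ranged from 213 to 326 CPM in females and 166 to 238 in males (1 of 6 and 0 of 6 higher), and stellate markers from 231 to 366 and from 185 to 255 CPM (2 of 7 and 0 of 7). Cholangiocyte markers ranged from 19.0 to 51.7 and from 21.2 to 31.7 CPM with 0 of 2 tested genes called, and leukocyte markers from 17.2 to 29.2 and from 9.56 to 17.3 CPM with 0 of 1 tested gene (Ptprc) called on chow and 1 of 1 on statin. Pancreas and adipose markers were at 2.05 CPM or below in all livers, with Pnlip at 0 in 3 groups and Plin1 at 0 in chow-fed males. No marker of these lists passed for statin in either sex by edgeR. In the comparison of statin with chow in females, in which Igf1 and Igfals did not overlap and did not pass, the summed leukocyte markers did not overlap, at 17.2 to 19.8 CPM with chow and 24.3 to 29.2 CPM with statin, and Ptprc had a log2 difference of 0.48 (adjusted p = 0.432, edgeR). The stellate sums overlapped there, at 317 to 366 and 231 to 347 CPM, and all 7 stellate genes had log2 differences below 0, with a median of -0.44 and 1 at an unadjusted p under 0.05. Fewer cells of a type and less RNA per cell cannot be told apart in whole liver. The part of these cells in the differences of the members and of the list genes between sexes and diets was not tested.

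Within groups the members fell into a steady and a variable set. The pooled within-group SD of log2(CPM + 1) was 0.11 for Ghr, 0.13 for Igf1 and 0.18 for Stat5b, below the median of 0.21 over the 11968 genes, and 0.31 or 0.32 for Igfals, Mup20 and Mup3. It was 0.69 for Socs2, 0.78 for Cux2, 1.09 for Cish and 1.29 for Bcl6. Only 4 genes had a larger SD than Bcl6 and only 7 a larger one than Cish. Male chow replicate 3 and male statin replicate 1 were the highest in Bcl6 (101 and 111 CPM) and the lowest in Cish (5.60 and 3.28 CPM).

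Relations within groups were measured for the 6 pairs of Cish, Socs2, Igf1 and Bcl6 as correlations of the deviations from the group means over the 12 livers, with exact permutation of livers within groups (two-sided). Cish and Bcl6 deviated in opposite directions, with Pearson's r = -0.92 (exact permutation p = 0.0054, adjusted over 6 pairs 0.0324) and Spearman's rho = -0.85 (exact permutation p = 0.00849, adjusted 0.0509). Without the 2 livers farthest from the median in Cish r was -0.84 (exact permutation p = 0.0417, 10 livers), which did not pass after adjustment over the 6 pairs (0.25). Within males alone r was -0.98 and within females alone -0.47 (6 livers each, exact permutation p = 0.0556 and 0.25, adjusted 0.333 and 0.722), and the difference between the sexes in this relation was not tested. Each sex alone has 36 arrangements, too few for a single pair to pass after adjustment over 6 pairs. Leaving out single livers gave r between -0.96 and -0.81 with adjusted p from 0.0278 to 0.264, and the adjusted p was over 0.05 in 10 of the 12 cases, all but those without female statin replicate 1 or 3. With the shared axis described below removed r was -0.88 (exact permutation p = 0.017, adjusted 0.102).

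The other pairs did not pass. Cish and Socs2 had r = 0.46 and rho = 0.59 (exact permutation p = 0.199 and 0.0934, adjusted 0.368 and 0.187). Socs2 and Igf1 had r = 0.40 and rho = 0.61 (exact permutation p = 0.186 and 0.081, adjusted 0.368 and 0.187). Igf1 and Bcl6 had r = 0.31 and rho = 0.17, Socs2 and Bcl6 r = -0.24 and rho = -0.22, and Cish and Igf1 r = -0.06 and rho = 0.14, with adjusted exact permutation p of 0.368 to 0.762 for r and 0.643 for rho. Without the 2 livers farthest from the median r was 0.55, 0.64, 0.08, -0.30 and 0.08 in this order.

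**Figure D4:**
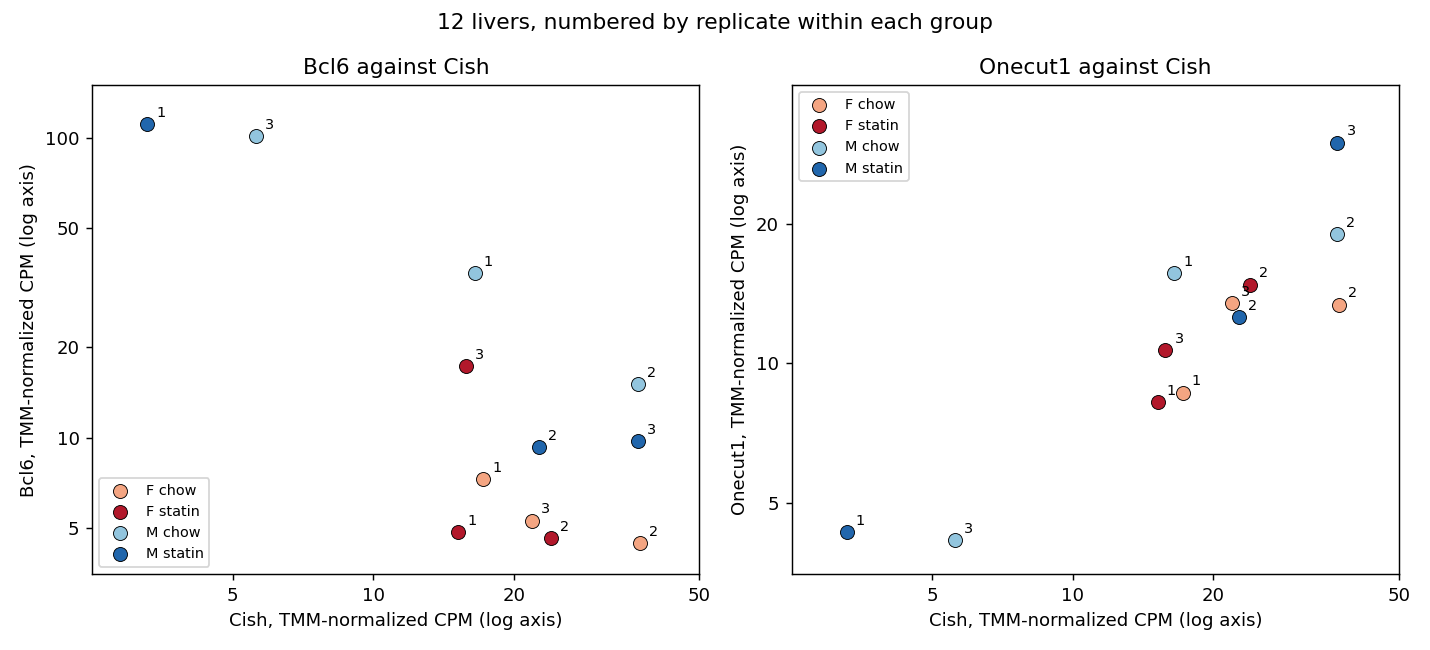
TMM-normalized CPM of Bcl6 (left) and Onecut1 (right) against Cish in the 12 livers, log axes, colored by group and numbered by replicate. Onecut1 was chosen as the gene with the profile nearest to Cish over these same livers. Male chow replicate 3 and male statin replicate 1 stand apart at 5.60 and 3.28 CPM of Cish, with Bcl6 at 101 and 111 CPM and Onecut1 at 4.15 and 4.31 CPM.

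A large share of the variation between livers of a group was common to many genes. A single axis held 57.8% of the within-group variance of 7641 genes, those averaging 10 CPM or more, and a gene's weight on it rose with its exonic length (rho 0.45 by Spearman over 7638 genes, and genes are no independent replicates). Among the 10 members Mup3 and Mup20 followed this axis, both with r = -0.91 over the 12 livers (exact permutation p = 0.00154 and 0.000772, adjusted 0.00772 for both, rho = -0.85 and -0.91, r without 2 livers -0.82 and -0.89), a check chosen after seeing the data. For Stat5b r was 0.81 (rho = 0.77, exact permutation adjusted p = 0.0566) and for Cish and Bcl6 -0.53 and 0.56 (rho = -0.46 and 0.43, adjusted p = 0.291 for both). The part of this axis in the spread of Mup3 and Mup20 was not tested further.

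For each member the gene with the most similar profile was taken as that with the smallest root mean square difference of centred log2(CPM + 1) over the 12 livers, among the 11968 genes. For Cish this was Onecut1, which encodes the hepatocyte factor HNF6, at a distance of 0.43 where the profile of Cish itself had a root mean square of 0.93. Onecut1 was at 8.65, 13.4 and 13.5 CPM in chow-fed females, 8.25, 14.8 and 10.7 CPM in statin-fed females, 15.7, 19.0 and 4.15 CPM in chow-fed males and 4.31, 12.6 and 30.0 CPM in statin-fed males. The male livers lowest in Cish were also the lowest in Onecut1. Onecut1 was chosen for its closeness to Cish over these same livers, so this agreement follows in part from the choice. Bcl6 lay nearest to Aox3, an aldehyde oxidase gene (0.71, own value 1.49), Cux2 to the transporter gene Slc22a27 (0.70, own value 2.22) and Socs2 to the potassium channel gene Kcnj8 (0.48, own value 0.68). Igf1 lay nearest to Map1lc3a (0.10, own value 0.32), Igfals to Dpys (0.20, own value 0.49), Ghr to Dcaf11 (0.07, own value 0.26) and Stat5b to Gtf3c5 (0.07, own value 0.16). Mup3 lay nearest to Mup10 (0.29, own value 1.26) and Mup20 to Mup11 (0.35, own value 3.47), copies with which they may share reads. Among the members the nearest to Ghr was Igf1 and the nearest to Igf1 was Ghr, at a distance of 0.13.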

How the data were processed

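RNA-seq of 12 livers in 4 groups was analysed. The authors aligned reads to GRCm38. The submitters' processing notes name STAR 2.4.1a, HTSeq and edgeR 3.28.1. The deposited tables hold CPM (count divided by the library total) for 48526 genes and counts for 11968 genes, those exceeding 1 CPM in 6 or more livers. The count table is described as TMM-normalized, but its deposited counts are whole reads: 100% of the nonzero CPM values were whole reads within 0.01 and 0 differed from the counts.

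Counts were fitted with edgeR 4.0.16 (quasi-likelihood, TMM, all groups in 1 fit, common dispersion 0.038, prior degrees of freedom 4.14), two-sided, with Benjamini-Hochberg adjustment over all genes tested. A standard error is the absolute log2 difference divided by the square root of F. Depths of 46066381 to 60419223 counts put 3 counts at 0.0497 to 0.0651 CPM, which covers counting error only. The p-values of the fits judge a difference against the spread between these livers. Exact permutation p-values come from rearrangements of livers within groups. Positions are from GENCODE vM21, and lengths are the merged exons. The members and all gene lists were chosen with earlier results of these data known. The genes named are the members and, from each list, the 3 smallest p-values per direction between the sexes on chow and the 2 per direction for statin, list genes past the test for statin, and the nearest gene to each member. 1 regulator gene is not reported here. Exceptions and called genes on statin livers were named after their values were seen. The code was tested on simulated data. Alternatives were DESeq2 1.42.0, limma 3.58.1 (pseudocounts 1 and 0.1), other scalings and filters, each sex alone, the replicate number as a block and leaving out each liver. Removing the shared within-group axis and splitting the relation by sex were chosen after seeing the data. The software was R 4.3.3 and, under Python 3.11.15, pandas 2.3.3, scipy 1.17.1, matplotlib 3.10.9 and numpy 2.4.6.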

Additional observations from a re-analysis of the deposited data

How the results depend on the processing

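With 3 livers a group, a difference of moderate size in a variable gene such as Cish or Bcl6 could not be resolved, as the intervals show. The sex differences of Mup3, Mup20, Cux2 and Igf1 on chow, and of Mup3, Mup20 and Cux2 on statin, kept their direction and passed in every alternative run. Same-numbered livers of different groups had a mean correlation of their deviations of -0.109 over 18 pairs (-0.745 to 0.673). The mean was 0.058 for 36 pairs with different numbers. Deviations from a group mean cancel within the group, so the second mean is largely set by the first. These means therefore cannot decide whether the numbers pair the livers. When replicate number entered as a block, 5 genes passed for statin in females in place of 12, 2 signalling genes in place of 4 passed between the sexes on statin, and Cux2 for statin in females had a log2 difference of 0.16. On chow the sex difference of Foxa1 was lost under the block (adjusted p = 0.0723) and that of Esr1 passed (0.0211). For statin in females DESeq2 called 270 genes, with 2 members, 3 signalling, 1 male-biased, 4 female-biased and 1 regulator gene, 4 genes in males, 122 in the difference between the responses (1 member, 1 signalling, 1 female-biased), 1946 between the sexes on chow (6 signalling, 5 regulators) and 1284 on statin. Without the filter on low counts these were 148 for statin in females (1 member, 2 signalling, 1 male-biased, 5 female-biased, 1 regulator) and 103 for the difference (1 member, 1 male-biased, 2 female-biased, 1 regulator), with 6 signalling genes and 5 regulators on chow. The stricter filter (over 5 CPM) gave 500 genes between the sexes on statin. Each sex alone gave 0 genes and 0 female-biased genes for statin in females. With library size alone 0 female-biased genes passed for statin in females and 5 signalling genes on chow, Stat5b for statin in females was at -0.034, and r of Cish and Igf1 was 0.20. It was 0.076 without 2 livers. With limma and pseudocount 1, 2 female-biased genes passed for statin in females, and log2 differences of 0.053 for Cux2 in females, -0.062 for Cish in males, 0.27 for Cish between the sexes on statin and 0.093 for Hao2 in the difference between the responses changed sign. With pseudocount 0.1 those of Cux2 and Cish were 0.060, -0.10 and 0.345. The r of Cish and Bcl6 no longer passed in females alone (-0.47), in males alone (-0.98), without 2 livers (-0.84) and with the shared axis removed (-0.88). In 1 sex alone the 36 arrangements are too few for a single pair to pass after adjustment. The causes of these changes were not tested.

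Leaving out single livers gave, for statin in females, 0 to 75 genes, 0 to 1 members, 0 to 1 signalling genes, 0 to 3 female-biased genes and 0 to 1 regulators. It gave 0 to 14 genes for the difference between the responses, 635 to 1586 genes, 1 to 6 signalling genes and 1 to 4 regulators between the sexes on chow, and 378 to 743 genes, 2 to 5 signalling genes and 2 to 4 regulators on statin. The r ranged from -0.96 to -0.81 for Cish and Bcl6, from -0.22 to 0.081 for Cish and Igf1 and from -0.35 to 0.016 for Socs2 and Bcl6. Log2 differences that changed sign ranged as follows. For statin in females they were -0.047 to 0.093 for Stat5b, -0.22 to 0.71 for Socs2, -0.25 to 0.95 for Bcl6 and -0.55 to 0.36 for Cux2. For statin in males they were -0.027 to 0.060 for Ghr, -0.27 to 0.0030 for Stat5b, -1.004 to 0.13 for Socs2, -0.60 to 0.93 for Cish, -0.050 to 0.028 for Igf1, -2.40 to 0.78 for Bcl6, -0.14 to 0.22 for Mup20, -0.29 to 0.51 for Esr1 and -0.011 to 0.44 for Foxo1. For the difference between the responses they were -0.014 to 1.34 for Socs2, -1.40 to 0.13 for Cish, -0.13 to 3.05 for Bcl6 and -0.085 to 0.30 for Mup20. Between the sexes they were -0.25 to 1.12 for Socs2, -0.071 to 1.21 for Cish and -0.28 to 0.12 for Cyp4a14 on chow, and -0.18 to 0.10 for Stat5b and -0.70 to 0.49 for Cish on statin.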
